A study of Caenorhabditis elegans with 32 samples.

Results

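Transcripts of 10 autophagy genes were measured by RNA-seq in whole Caenorhabditis elegans of 4 genotypes on 2 media. The genes are unc-51, bec-1, atg-9, atg-18, lgg-1, lgg-2, atg-4.1, atg-16.2, sqst-1 and epg-5. They were listed by name for their place in the pathway, with earlier results of these data known. The paper on these data had already reported differences in atg-4.1, lgg-2 and atg-18 between the genotypes. All 10 members were found among the 46589 genes of the count table. They passed the filter on low counts in every comparison, with at least 151 counts in every library. The genotypes were a double mutant with both changes (pgph-2 o/e; hlh-30), pgph-2 overexpression alone (pgph-2 o/e), the single mutant hlh-30(tm1978) and WT, which is the N2 Bristol strain. The double mutant carries the same tm1978 allele. Each was grown on normal growth medium (NGM) supplemented with 2% glucose and on NGM alone, with 4 libraries in each of 8 groups (32 in all). The animals were synchronized and are labelled as L4 or young adult, and polyadenylated RNA came from extracts of the whole body. The gene pgph-2 encodes a phosphatase that turns glycerol-3-phosphate into glycerol. The pgph-2 o/e animals carry an integrated pgph-2 transgene with an mCherry marker expressed in the pharynx, and the WT and hlh-30 animals are not labelled as carrying a marker, so that the marker and pgph-2 cannot be told apart here. The gene hlh-30 encodes the worm homolog of TFEB, a transcription factor of autophagy and lysosomal genes, and tm1978 is a deletion allele.

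Autophagy encloses cytoplasm in a double membrane, the autophagosome, which fuses with the lysosome where its content is broken down. The kinase UNC-51 starts the process, and BEC-1 belongs to the lipid kinase complex that marks the site where the membrane forms. ATG-9 brings lipid to the growing membrane, and ATG-18 binds the lipid mark and helps to recycle ATG-9. LGG-1 and LGG-2, the worm homologs of GABARAP and LC3, are cut by the protease ATG-4.1 and then joined to membrane lipid with the help of ATG-16.2. SQST-1, the homolog of p62, carries ubiquitinated cargo into the autophagosome and is broken down with it, and EPG-5 tethers mature autophagosomes to lysosomes. Transcript levels do not measure autophagic flux. In whole animals, fewer cells of a type and less RNA per cell cannot be told apart.

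The libraries held 16750042 to 29794842 counts, and replicates of one group correlated with each other at r of 0.938 to 0.984 across genes. Levels are CPM, that is counts scaled to a common library size, after TMM normalization, which corrects each library for its total and composition. Transcripts of pgph-2 were higher in pgph-2 o/e than in WT animals on NGM (69.4 ± 11.7 and 37.8 ± 5.87 CPM; SD, n = 4 each) and on 2% glucose (123 ± 17.5 and 67.8 ± 4.28 CPM). They also differed between strains that carry the same transgene, at 126 ± 13.7 CPM in the double mutant, against 69.4 ± 11.7 CPM with pgph-2 o/e alone on NGM (log2 fold change 0.87, adjusted p = 0.000241, edgeR), and 83.6 ± 8.48 and 123 ± 17.5 CPM on glucose (-0.59, adjusted p = 0.00478, edgeR). In hlh-30 over WT animals on glucose, pgph-2 was lower as well (36 ± 6.53 and 67.8 ± 4.28 CPM, log2 fold change -0.92, adjusted p = 0.0013, edgeR). The hlh-30 allele and the level of pgph-2 therefore cannot be told apart in the double mutant over pgph-2 o/e. Transcripts of hlh-30 were lower in hlh-30 than in WT animals on NGM (54.1 ± 4.69 and 99.1 ± 8.42 CPM) and on 2% glucose (69.9 ± 8.54 and 103 ± 14.3 CPM). Whether the counted exons lie inside the tm1978 deletion was not analysed here, so these remaining counts do not show how much function is left. Genes of germ cells and stage differed between groups as well, and only the sperm genes were entered as a covariate, as described further on, while the part of the other lists in the results was not tested. A list of 41 sperm genes summed to 240 to 646 CPM in pgph-2 o/e libraries on glucose and 88.3 to 756 CPM in hlh-30 libraries on glucose, against 1722 to 3580 CPM in WT libraries on glucose. On NGM it summed to 532 to 1016 CPM in pgph-2 o/e; hlh-30, 2647 to 4371 CPM in pgph-2 o/e, 310 to 1024 CPM in hlh-30 and 1314 to 2290 CPM in WT libraries. At most 2 of the 41 sperm genes were at 0 in any library. A list of 18 oocyte genes summed to 916 to 1522 CPM in pgph-2 o/e libraries on NGM, against 363 to 563 CPM in WT libraries on NGM. On glucose the oocyte list summed to 306 to 354 CPM in pgph-2 o/e and 255 to 333 CPM in hlh-30 libraries, against 513 to 1096 CPM in WT libraries. Vitellogenin genes of the adult intestine and molting genes of the larval epidermis shifted too. On NGM, 6 of 6 vitellogenin genes (median log2 fold change -3.29) and 10 of 12 molting genes were called lower in the double mutant over pgph-2 o/e. For the transgene over WT on glucose these numbers were 6 of 6 (median -3.68) and 9 of 12, and in hlh-30 over WT on glucose 6 of 6 (median -3.30) and 6 of 12. Of 10 germline genes, 6, 7 and 8 were called lower in these 3 comparisons.

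Differences are log2 fold changes of the first group over the second from edgeR's quasi-likelihood test on the libraries of the groups compared. A gene was called higher or lower at a Benjamini-Hochberg adjusted p of at most 0.05 over the 14963 to 15908 genes tested. Of 120 member differences in 12 comparisons of 2 groups, 31 were called, 18 higher and 13 lower. Over all genes tested, calls ran from 551 of 15271 (2% glucose over NGM in WT) to 6901 of 15316 (hlh-30 over WT on 2% glucose). The share over all genes is given with each comparison below. Only 1 of the 31 reached a fold change of 2, namely lgg-2 in the double mutant over pgph-2 o/e on NGM. The genes were called unequally often, lgg-2 in 6 comparisons, atg-18 and sqst-1 in 5, lgg-1 in 4, atg-9 in 3, unc-51, bec-1, atg-16.2 and epg-5 in 2, and atg-4.1 in 0.

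**Figure D1:**
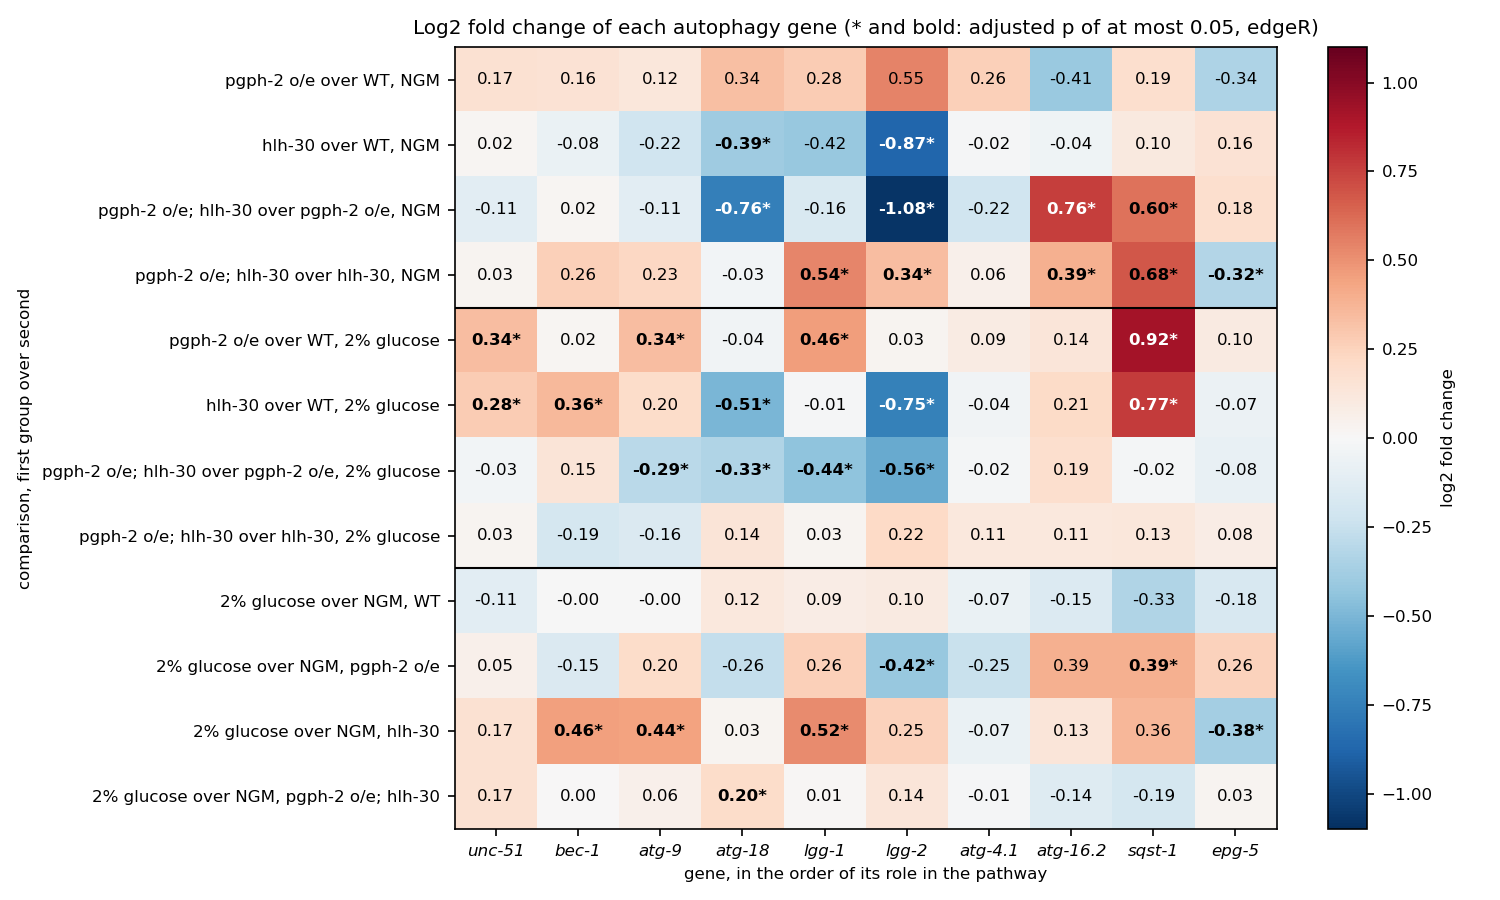
Log2 fold changes of the 10 genes (columns, in the order of their roles) in the 12 comparisons (rows, first group over second), with red for higher and blue for lower. Bold values with a star were called at an adjusted p of at most 0.05 (edgeR); lgg-2 and atg-18 are lower in each of the 4 comparisons of animals with the tm1978 allele with animals without it, and the lowest value is -1.08.

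The tm1978 allele on NGM went with lower lgg-2 and atg-18. In hlh-30 over WT animals, these 2 genes were called lower and no member was called higher, where 9.08% of all genes tested were called lower and 6.08% higher. In pgph-2 o/e; hlh-30 over pgph-2 o/e animals, lgg-2 and atg-18 were called lower again, and atg-16.2 and sqst-1 were called higher. This comparison called a large share of the transcriptome, with 22.6% of all genes lower and 19.8% higher, so that 2 of 10 members in each direction is close to the background. Of the 40 tested sperm genes, 37 were called lower in this comparison and 29 in hlh-30 over WT animals.

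The transgene on NGM gave no call in animals with intact hlh-30 when the 2 groups were fitted alone. For pgph-2 o/e over WT, 0 of 10 members were called by edgeR or by DESeq2, although 5 had an unadjusted p under 0.05, against 4.37% of all genes called higher and 2.53% called lower. The median log2 fold change of the members was 0.18, with 8 of 10 above 0, and 0.00 over all genes tested. The highest value was that of lgg-2, at 0.55 (SE 0.18, adjusted p = 0.0915, edgeR). With all 32 libraries in one fit, edgeR called 4 members in this comparison, namely lgg-2, atg-18 and atg-4.1 higher and atg-16.2 lower. Over all genes that fit called 1135 higher and 1325 lower, against 667 and 387 with the 2 groups alone. With the sperm genes as a covariate in that fit, lgg-1, lgg-2 and atg-18 were called, where 980 of all genes were called higher and 1069 lower. In the tm1978 background, the transgene went with higher levels of sqst-1, lgg-1, atg-16.2 and lgg-2 and a lower level of epg-5. That is 4 members higher and 1 lower for pgph-2 o/e; hlh-30 over hlh-30 on NGM, where 5.80% of all genes were called higher and 5.81% lower. None of the 40 tested sperm genes was called in this comparison. Other marker lists did move, with 2 of 4 vitellogenin genes (median -1.14), 2 of 18 oocyte genes and 2 of 12 molting genes called lower, and their part in the result was not tested.

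Glucose-fed animals of both altered genotypes differed from WT in sqst-1. For pgph-2 o/e over WT on 2% glucose, 4 members were called higher (sqst-1, lgg-1, atg-9 and unc-51) and 0 lower, where 19.5% of all genes were called higher and 22.0% lower. For hlh-30 over WT on 2% glucose, sqst-1, bec-1 and unc-51 were called higher and lgg-2 and atg-18 lower, where the shares over all genes were 21.4% and 23.7%. For pgph-2 o/e; hlh-30 over pgph-2 o/e on 2% glucose, lgg-2, lgg-1, atg-18 and atg-9 were called lower and none higher, with 7.05% of all genes lower and 6.19% higher. For pgph-2 o/e; hlh-30 over hlh-30 on 2% glucose, 0 of 10 members were called by edgeR or DESeq2 and 4 had an unadjusted p under 0.05, with 1.75% of all genes called higher and 2.51% lower. In the first 2 of these comparisons the sperm genes fell with the group, with 39 and 40 of 40 called lower, while in the third 27 of 40 were called higher.

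Between media, 7 member differences were called, 0 in WT, 2 in pgph-2 o/e, 4 in hlh-30 and 1 in double mutant animals. In WT animals on 2% glucose over NGM, 0 of 10 members were called by edgeR or DESeq2 and 0 had an unadjusted p under 0.05, with 1.19% of all genes called higher and 2.42% lower. The values in WT ran from -0.33 (sqst-1) to 0.12 (atg-18). In pgph-2 o/e animals, sqst-1 was called higher and lgg-2 lower on glucose, below the shares of all genes called (17.3% higher and 21.5% lower). In hlh-30 animals, lgg-1, bec-1 and atg-9 were called higher and epg-5 lower on glucose, where 7.55% of all genes were called higher and 5.41% lower. In the double mutant, atg-18 alone was called higher, with 6.05% of all genes higher and 5.13% lower.

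**Figure D2:**
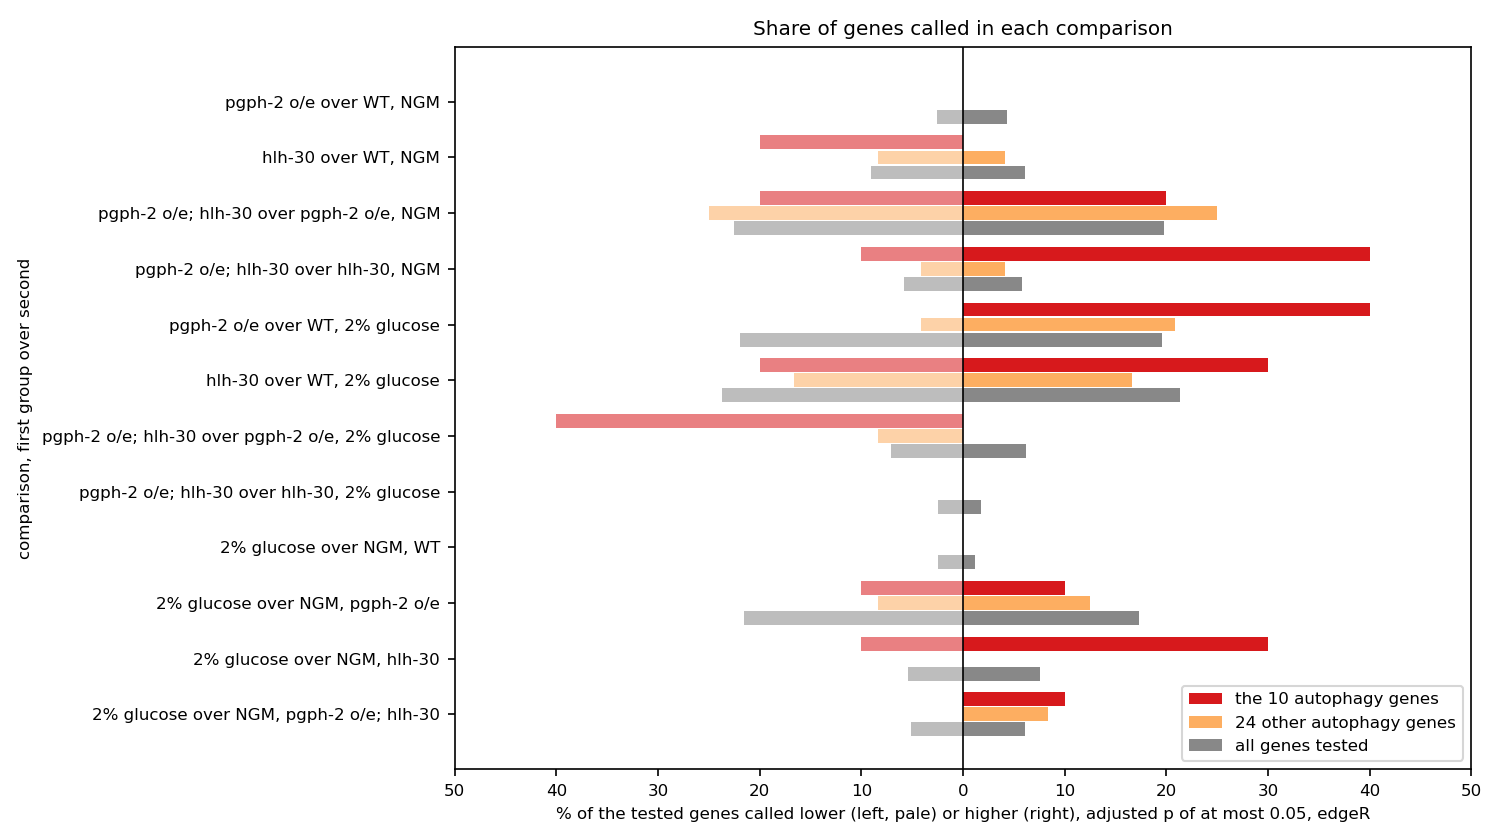
Percent of genes called higher (right) or lower (left, pale) in each comparison (rows) among the 10 autophagy genes, 24 other autophagy genes that were tested and all genes tested. The members stand above the all-gene share in, among others, pgph-2 o/e; hlh-30 over hlh-30 on NGM (4 of 10 higher, against 5.80%). There, the lgg-2 and atg-16.2 calls were lost when some single libraries were left out. On glucose, pgph-2 o/e; hlh-30 over pgph-2 o/e is another such case (4 of 10 lower, against 7.05%). The members lie at or under the share in 2% glucose over NGM for pgph-2 o/e animals (1 of 10 in each direction).

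Whether the effect of the transgene depended on hlh-30 was tested as an interaction, the difference between the transgene's log2 fold change in the tm1978 background and with intact hlh-30. The transcript of pgph-2 itself had interactions of 0.75 on NGM (adjusted p = 0.168) and 0.37 on glucose (adjusted p = 0.108, edgeR), neither called. On NGM, 1 member had a called interaction, atg-16.2 (higher), where 2.27% of all genes had a higher and 1.67% a lower one. The interactions of atg-4.1, lgg-2 and atg-18, the genes named in the paper, were not called on NGM, which does not show that there was none. On 2% glucose, sqst-1, atg-9 and lgg-1 had lower interactions, where 21.2% of all genes were called higher and 17.3% lower. The effect of the transgene on glucose less that on NGM, with hlh-30 intact, was called for sqst-1 alone (higher), where 14.2% of all genes were called higher and 19.6% lower. For the effect of the tm1978 allele on glucose less that on NGM, without the transgene, 0 members were called by edgeR or DESeq2 and 3 had an unadjusted p under 0.05, with 0.832% of all genes higher and 0.617% lower. For lgg-2 and atg-18 these interactions were 0.12 (SE 0.20) and -0.12 (SE 0.09), which does not show that the effect was the same on both media.

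The kinase gene unc-51 (Y60A3A.1) lies on chromosome V from 19995987 to 20004487 on the minus strand (WBcel235, positions of the deposited table). On 2% glucose its levels were 75.8, 82.7, 77.9 and 83.7 CPM in pgph-2 o/e libraries and 74.7, 76.3, 76.3 and 78.7 CPM in hlh-30 libraries, against 66.3, 54.3, 72.7 and 58.9 CPM in WT libraries. All libraries of both groups lay above the WT libraries. The log2 fold change was 0.34 (SE 0.09, adjusted p = 0.0115, edgeR) for pgph-2 o/e and 0.28 (SE 0.09, adjusted p = 0.0271, edgeR) for hlh-30 over WT. The call in hlh-30 animals was lost when replicate 2 or 4 of either group was left out (adjusted p of 0.0534 to 0.0772). On NGM the 4 group means of unc-51 lay between 68.6 and 77.3 CPM, and no comparison was called.

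The gene of the lipid kinase subunit, bec-1 (T19E7.3), lies on chromosome IV from 5661142 to 5664427 on the minus strand. In hlh-30 animals it was at 39.5, 33.3, 36.2 and 41.8 CPM on 2% glucose, against 25, 29.1, 29.1 and 28.7 CPM on NGM, and the libraries did not overlap. The log2 fold change was 0.46 (SE 0.09, adjusted p = 0.0145, edgeR). The WT libraries on 2% glucose held 25.8, 26.6, 32.2 and 32.9 CPM of bec-1, all below the hlh-30 libraries on glucose. For hlh-30 over WT on glucose the value was 0.36 (SE 0.11, adjusted p = 0.0271, edgeR), and the call was lost when hlh-30 replicate 1 or 4 or WT replicate 1 or 2 was left out (adjusted p of 0.0625 to 0.0964). The transgene gave no call for bec-1, with values of 0.16 on NGM and 0.02 on glucose over WT. In the tm1978 background on NGM its value was 0.26 (SE 0.09, adjusted p = 0.0776, edgeR). There the double mutant libraries (29.7 to 36.5 CPM) all lay above the hlh-30 libraries. That difference was called when replicate 4 of either group was left out.

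Of the membrane supply genes, atg-9 (T22H9.2) encodes the lipid scramblase of the pathway and lies on chromosome V from 348789 to 358841 on the plus strand. On 2% glucose it was at 54.3, 55.7, 46.5 and 57.8 CPM in pgph-2 o/e libraries, against 40.9, 38.8, 47.2 and 42.1 CPM in WT libraries. One pgph-2 o/e library lay below the highest WT library, and the log2 fold change was 0.34 (SE 0.09, adjusted p = 0.0112, edgeR). The double mutant held 46.3, 44.8, 42.9 and 44.7 CPM on glucose, a log2 fold change of -0.29 over pgph-2 o/e (SE 0.08, adjusted p = 0.0352, edgeR), and the interaction on glucose was -0.46 (SE 0.11, adjusted p = 0.0043, edgeR). The call over pgph-2 o/e was lost when any one of 7 of the 8 libraries was left out, pgph-2 o/e replicate 3 being the exception (adjusted p of 0.0561 to 0.0978). In hlh-30 animals atg-9 was at 53.5, 46.3, 46.0 and 48.8 CPM on glucose, against 30.8, 33.7, 38 and 43.1 CPM on NGM. That difference of 0.44 (SE 0.11, adjusted p = 0.0285, edgeR) was no longer called when replicate 1 or 2 of either medium, NGM replicate 3 or glucose replicate 4 was left out (adjusted p of 0.0501 to 0.0902).

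The gene atg-18 (F41E6.13), whose product binds the lipid mark, lies on chromosome V from 8629272 to 8631325 on the minus strand. On NGM it was at 52.0, 53.3, 52.0 and 53.8 CPM in hlh-30 libraries, against 65.4, 71.6, 73.2 and 68.5 CPM in WT libraries. The double mutant libraries on NGM held 49.8, 50.6, 53.7 and 53.9 CPM, against 111, 83, 77.6 and 80.9 CPM in pgph-2 o/e libraries. In both pairs the libraries with the tm1978 allele lay below all libraries of their partner, and all 8 held between 49.8 and 53.9 CPM. The log2 fold changes of atg-18 were -0.39 (SE 0.06, adjusted p = 0.00306, edgeR) for hlh-30 over WT and -0.76 (SE 0.12, adjusted p = 0.00037, edgeR) for the double mutant over pgph-2 o/e.

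On 2% glucose the groups with the tm1978 allele again lay below their partners for atg-18. The hlh-30 libraries held 52.5, 54.7, 51.1 and 53.5 CPM, against 70.1, 68.4, 85.2 and 76.5 CPM in WT libraries. The double mutant libraries held 59.6, 59, 61.7 and 58.9 CPM, against 71.3, 66.6, 75.7 and 80.0 CPM in pgph-2 o/e libraries. Neither pair overlapped, and the log2 fold changes were -0.51 (SE 0.08, adjusted p = 0.00178, edgeR) and -0.33 (SE 0.07, adjusted p = 0.0106, edgeR). These 4 comparisons share no library, and leaving out any one library ended none of the 4 calls. Between media, atg-18 was called in the double mutant, at 0.20 (SE 0.06, adjusted p = 0.0433, edgeR), and that call was lost whichever library was left out (adjusted p of 0.0501 to 0.111).

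In the conjugation group, lgg-1 (C32D5.9) had the highest level per length of the 10 genes and lies on chromosome II from 6346957 to 6347719 on the minus strand. On 2% glucose it was at 253, 244, 222 and 241 CPM in pgph-2 o/e libraries, against 152, 176, 189 and 177 CPM in WT libraries. The double mutant libraries on glucose held 177, 175, 169 and 202 CPM. The pgph-2 o/e libraries thus lay above all libraries of both other groups, with log2 fold changes of 0.46 over WT (SE 0.08, adjusted p = 0.00111, edgeR) and -0.44 for the double mutant over pgph-2 o/e (SE 0.07, adjusted p = 0.00367, edgeR). The interaction on glucose was -0.39 (SE 0.14, adjusted p = 0.0405, edgeR) and was lost when replicate 2 of the double mutant, replicate 2 or 4 of pgph-2 o/e or replicate 1 or 4 of hlh-30 was left out (adjusted p of 0.0602 to 0.0895).

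On NGM, lgg-1 was at 188, 190, 168 and 167 CPM in double mutant libraries and 119, 106, 112 and 153 CPM in hlh-30 libraries, which did not overlap (log2 fold change 0.54, SE 0.11, adjusted p = 0.0138, edgeR). The WT libraries on NGM held 145, 148, 201 and 165 CPM of lgg-1, and hlh-30 over WT was -0.42 (SE 0.14, adjusted p = 0.0647, edgeR), a difference that was called by DESeq2 and when hlh-30 replicate 4, the highest of its group, was left out (-0.55). In hlh-30 animals on 2% glucose the levels were 199, 165, 138 and 189 CPM, partly overlapping those on NGM. The difference between media of 0.52 (SE 0.15, adjusted p = 0.0474, edgeR) was lost without replicate 1 or 2 of either medium, NGM replicate 3 or glucose replicate 4 (adjusted p of 0.0820 to 0.131).

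The LC3 homolog lgg-2 (ZK593.6) lies on chromosome IV from 10934191 to 10935905 on the minus strand and had the largest changes. On NGM it was at 43.0, 39.8, 38.3 and 38.1 CPM in double mutant libraries, against 112, 84.4, 64.4 and 77.4 CPM in pgph-2 o/e libraries. The hlh-30 libraries held 30.4, 27.9, 36.6 and 30.5 CPM, against 44.0, 60.0, 70.1 and 56.7 CPM in WT libraries. No library with the tm1978 allele reached the lowest one of its partner. The log2 fold changes were -1.08 (SE 0.15, adjusted p = 0.000142, edgeR) for the double mutant over pgph-2 o/e and -0.87 (SE 0.14, adjusted p = 0.00411, edgeR) for hlh-30 over WT. Between the 2 strains with the tm1978 allele, lgg-2 was 0.34 higher in the double mutant (SE 0.09, adjusted p = 0.0312, edgeR), and this call was lost without double mutant replicate 1, 2 or 3 or hlh-30 replicate 1 or 2 (adjusted p of 0.0600 to 0.0968).

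On 2% glucose, lgg-2 was at 42.5, 42.9, 41.8 and 47.9 CPM in double mutant libraries, against 58.6, 61.3, 61.9 and 70.0 CPM in pgph-2 o/e libraries. The hlh-30 libraries held 38.9, 36.3, 32.1 and 39.6 CPM, against 59.3, 49.6, 76.3 and 61.2 CPM in WT libraries. Again neither pair overlapped. The log2 fold changes were -0.56 (SE 0.08, adjusted p = 0.0016, edgeR) and -0.75 (SE 0.13, adjusted p = 0.00283, edgeR), and no call of these 4 comparisons was lost when a library was left out. In pgph-2 o/e animals lgg-2 was 0.42 lower on glucose than on NGM (log2 fold change -0.42, SE 0.15, adjusted p = 0.0458, edgeR). That call was lost without any one of 7 of the 8 libraries, all but NGM replicate 3 (adjusted p of 0.0506 to 0.109), and the value was -0.24 in the case closest to 0.

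The protease gene atg-4.1 (Y87G2A.3) lies on chromosome I from 13536966 to 13542413 on the minus strand and was called in none of the 12 comparisons or 4 interactions. Its exons share 100 bases with Y87G2A.2 on the other strand, and whether counting used the strand is not given in the sources used here. The group means of atg-4.1 ran from 33.2 ± 3.54 CPM in hlh-30 animals on glucose to 43.4 ± 4.03 CPM in pgph-2 o/e animals on NGM (SD, n = 4). Its largest difference was the one between pgph-2 o/e and WT animals on NGM, where 48.0, 39.3, 40.8 and 45.3 CPM stood against 33.2, 37.8, 38.9 and 34.1 CPM. The libraries did not overlap, and the log2 fold change was 0.26 (SE 0.11, adjusted p = 0.157, edgeR).

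The gene atg-16.2 (K06A1.5), of the conjugation complex, lies on chromosome II from 6450930 to 6453391 on the minus strand and had lower levels than most members. On NGM it was at 21.6, 18.9, 18.9 and 21.1 CPM in double mutant libraries and 8.66, 15.8, 11.7 and 11.7 CPM in pgph-2 o/e libraries. The hlh-30 libraries held 14.9, 13.4, 16.3 and 16.5 CPM and the WT libraries 16.0, 14.7, 16.14 and 16.5 CPM. The double mutant libraries lay above those of the other 3 genotypes. The log2 fold change was 0.76 over pgph-2 o/e (SE 0.16, adjusted p = 0.00242, edgeR) and 0.39 over hlh-30 (SE 0.10, adjusted p = 0.0308, edgeR). The interaction of 0.83 (SE 0.20, adjusted p = 0.0271, edgeR) combined a value of -0.41 for the transgene with intact hlh-30, which was not called, and the 0.39 with tm1978. The call over hlh-30 was lost without any one of 7 of the 8 libraries, hlh-30 replicate 4 being the exception (adjusted p of 0.0521 to 0.093). The interaction was lost for 10 of 16 libraries left out, with values of 0.72 to 0.82 and an adjusted p of 0.0518 to 0.08: double mutant replicates 1, 2 and 4, pgph-2 o/e replicate 4, hlh-30 replicates 1 to 3 and WT replicates 2 to 4.

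The cargo receptor gene sqst-1 (T12G3.1) lies on chromosome IV from 12034252 to 12037051 on the plus strand. On 2% glucose it was at 165, 181, 171 and 198 CPM in pgph-2 o/e libraries and 173, 154, 129 and 191 CPM in hlh-30 libraries, against 101, 72.5, 109 and 95.6 CPM in WT libraries. Every library of both genotypes lay above every WT library. The log2 fold change over WT was 0.92 (SE 0.11, adjusted p = 0.000255, edgeR) for pgph-2 o/e and 0.77 (SE 0.15, adjusted p = 0.00437, edgeR) for hlh-30. The double mutant libraries on glucose held 169, 201, 158 and 195 CPM, which overlapped with both, and its values were -0.02 over pgph-2 o/e and 0.13 over hlh-30. The interaction was -0.75 (SE 0.18, adjusted p = 0.00423, edgeR).

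On NGM, sqst-1 was at 203, 217, 187 and 219 CPM in double mutant libraries, against 145, 157, 120 and 124 CPM in pgph-2 o/e libraries and 114, 123, 113 and 161 CPM in hlh-30 libraries. Each double mutant library lay above all of them. The log2 fold change was 0.60 over pgph-2 o/e (SE 0.11, adjusted p = 0.00107, edgeR) and 0.68 over hlh-30 (SE 0.11, adjusted p = 0.00582, edgeR). The WT libraries on NGM held 97.6, 106, 151 and 124 CPM of sqst-1, and neither pgph-2 o/e (0.19) nor hlh-30 (0.10) was called over WT on this medium. In pgph-2 o/e animals sqst-1 was 0.39 higher on glucose than on NGM (SE 0.11, adjusted p = 0.0161, edgeR), which was lost without NGM replicate 3 or 4 (adjusted p of 0.0507 and 0.0559). The effect of the transgene on glucose exceeded that on NGM by 0.71 (SE 0.19, adjusted p = 0.00818, edgeR). Leaving out any one library ended none of the other sqst-1 calls.

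The tethering factor gene epg-5 (C56C10.12) lies on chromosome II from 6603441 to 6609356 on the minus strand in the deposited table, a shorter model than the 6598344 to 6609365 of RefSeq, and it shares 8 exon bases with vps-33.2 on the other strand. In hlh-30 animals it was at 29.5, 26.5, 26.5 and 32.5 CPM on 2% glucose, against 39.2, 36.3, 40.4 and 35.8 CPM on NGM. The groups did not overlap, and the log2 fold change was -0.38 (SE 0.09, adjusted p = 0.0263, edgeR). The double mutant libraries on NGM held 25.4, 31.3, 32 and 33.7 CPM of epg-5, below the hlh-30 libraries on NGM by -0.32 (SE 0.09, adjusted p = 0.0491, edgeR). Both calls were lost without NGM hlh-30 replicate 1, 2 or 3; the first also without glucose replicate 1 or 2 (adjusted p of 0.0601 to 0.0816) and the second without double mutant replicate 1, 2 or 3 (0.0816 to 0.132).

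**Figure D3:**
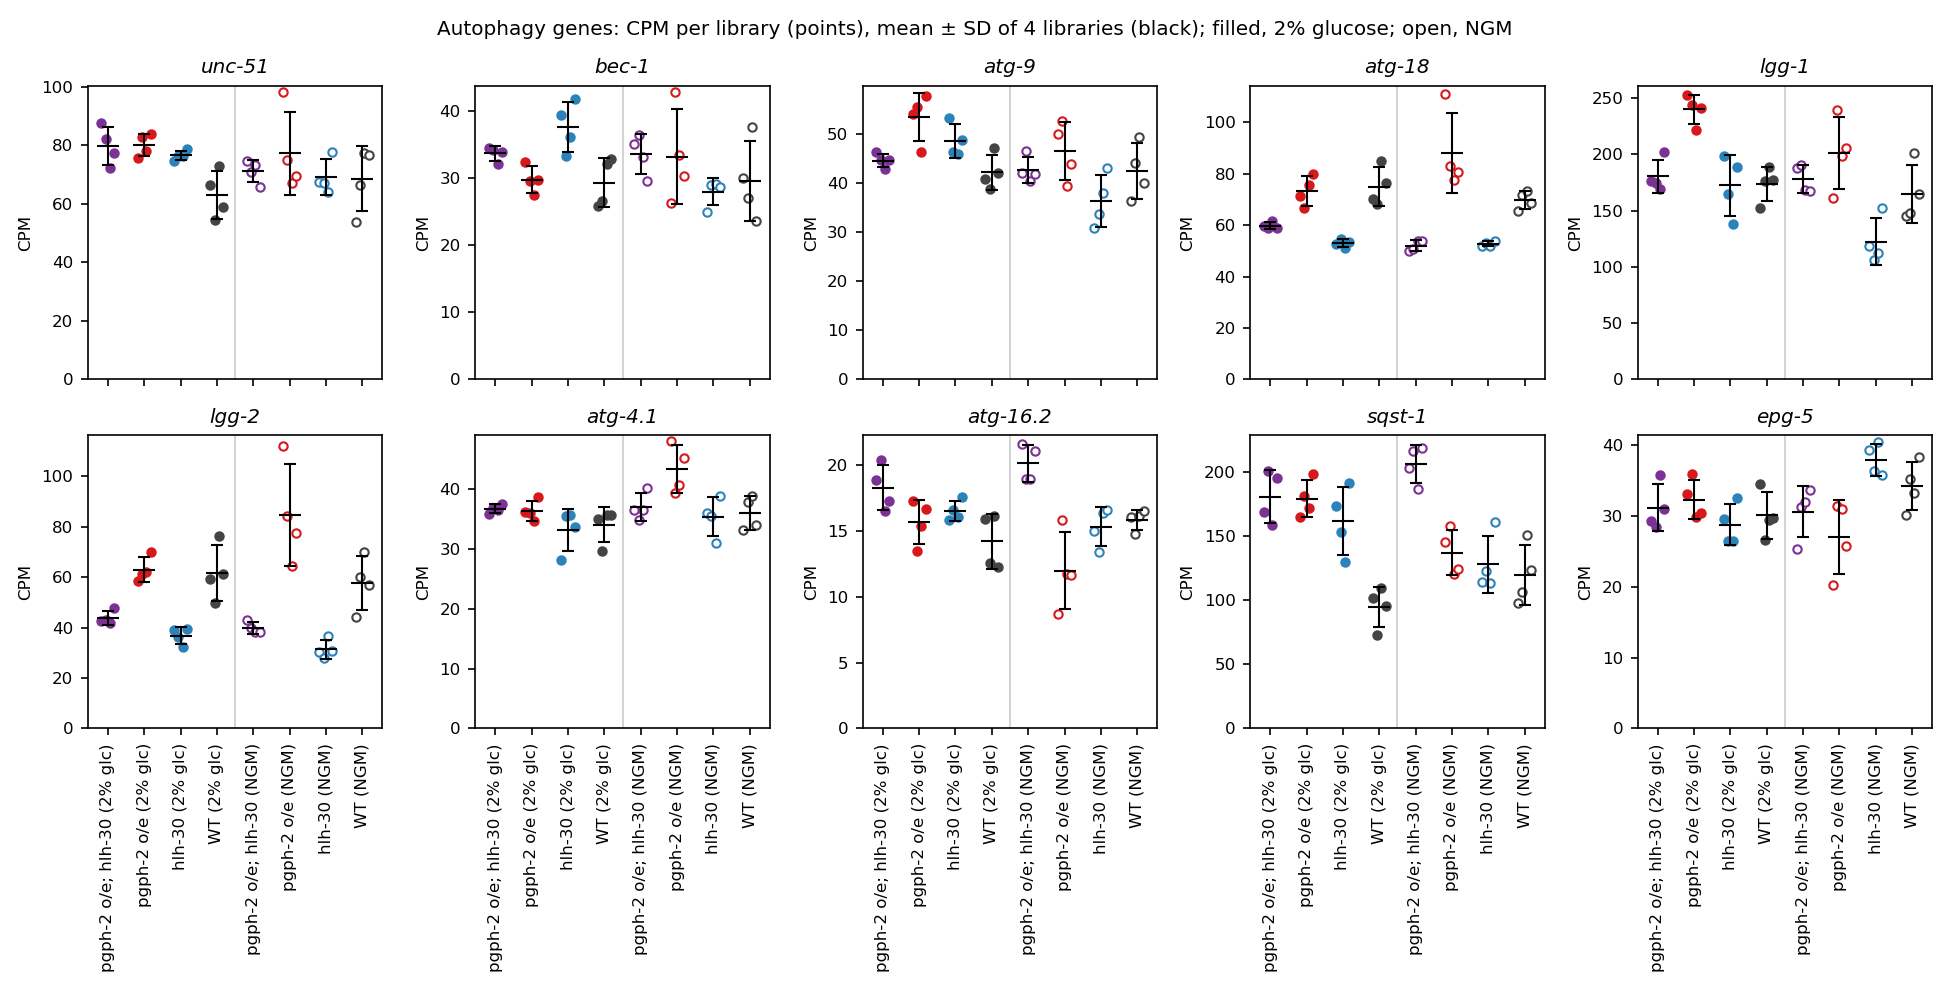
CPM of each gene (vertical axes, from 0) in each of the 32 libraries (points) by group, with the mean and SD of 4 libraries in black; filled points are 2% glucose and open points NGM. The points of lgg-2 and atg-18 in the double mutant and in hlh-30 animals lie below those of pgph-2 o/e and WT animals of the same medium, and sqst-1 is lowest in WT on glucose (94.7 ± 15.9 CPM).

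The germ cell lists moved with part of these results, so the differences were also fitted with the mean log2 CPM of the sperm genes as a covariate, in one fit of all 32 libraries. Of the 31 calls, 10 were kept. These were lgg-2 and atg-18 in hlh-30 over WT on NGM, lgg-2, atg-18 and atg-16.2 in the double mutant over pgph-2 o/e on NGM, lgg-1, atg-16.2 and sqst-1 in the double mutant over hlh-30 on NGM, atg-18 in the double mutant over pgph-2 o/e on glucose and epg-5 between media in hlh-30 animals. This fit also added calls, with 18 member differences called in all. On NGM it added lgg-1, lgg-2 and atg-18 in pgph-2 o/e over WT, and lgg-1 and atg-9 in hlh-30 over WT. It further added lgg-1 in the double mutant over pgph-2 o/e on NGM, and lgg-1 and sqst-1 in the double mutant over hlh-30 on glucose. For lgg-2 the values with the covariate were -0.94 (hlh-30 over WT) and -1.18 (double mutant over pgph-2 o/e) on NGM, and on glucose -0.93 (adjusted p = 0.0661) and -0.47 (adjusted p = 0.0533, edgeR). For atg-18 in hlh-30 over WT on glucose the value with the covariate was -0.44 (adjusted p = 0.195, edgeR), against -0.51 without it.

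For sqst-1 all calls but that of the double mutant over hlh-30 on NGM (0.76) were lost with the covariate. Its log2 fold change over WT on glucose was 0.45 in pgph-2 o/e animals (adjusted p = 0.153) and 0.11 in hlh-30 animals (adjusted p = 0.885, edgeR), and 0.26 (adjusted p = 0.202) in the double mutant over pgph-2 o/e on NGM. The glucose calls of lgg-1 (0.00), atg-9 (0.09) and unc-51 (0.20) in pgph-2 o/e over WT were lost as well. On glucose the sperm gene sums of pgph-2 o/e and hlh-30 libraries did not overlap with those of WT. Double mutant sums on glucose (784 to 1265 CPM) lay above those of both pgph-2 o/e and hlh-30 libraries. On NGM, all hlh-30 sums lay below the WT range and all pgph-2 o/e sums above it. Double mutant sums on NGM lay below every pgph-2 o/e sum but overlapped with hlh-30. Wherever the sums did not overlap, genotype and sperm gene level cannot be told apart, whether calls were kept, lost or added. With the tm1978 allele, lgg-2 and atg-18 were lower in 3 comparisons where sperm genes were lower too. They were also lower in the double mutant over pgph-2 o/e on glucose, where 27 of 40 sperm genes were called higher. Oocyte and vitellogenin genes were called in these comparisons as well. What part germ cell or stage differences had in the lgg-2 and atg-18 levels was not tested beyond the sperm covariate.

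**Figure D4:**
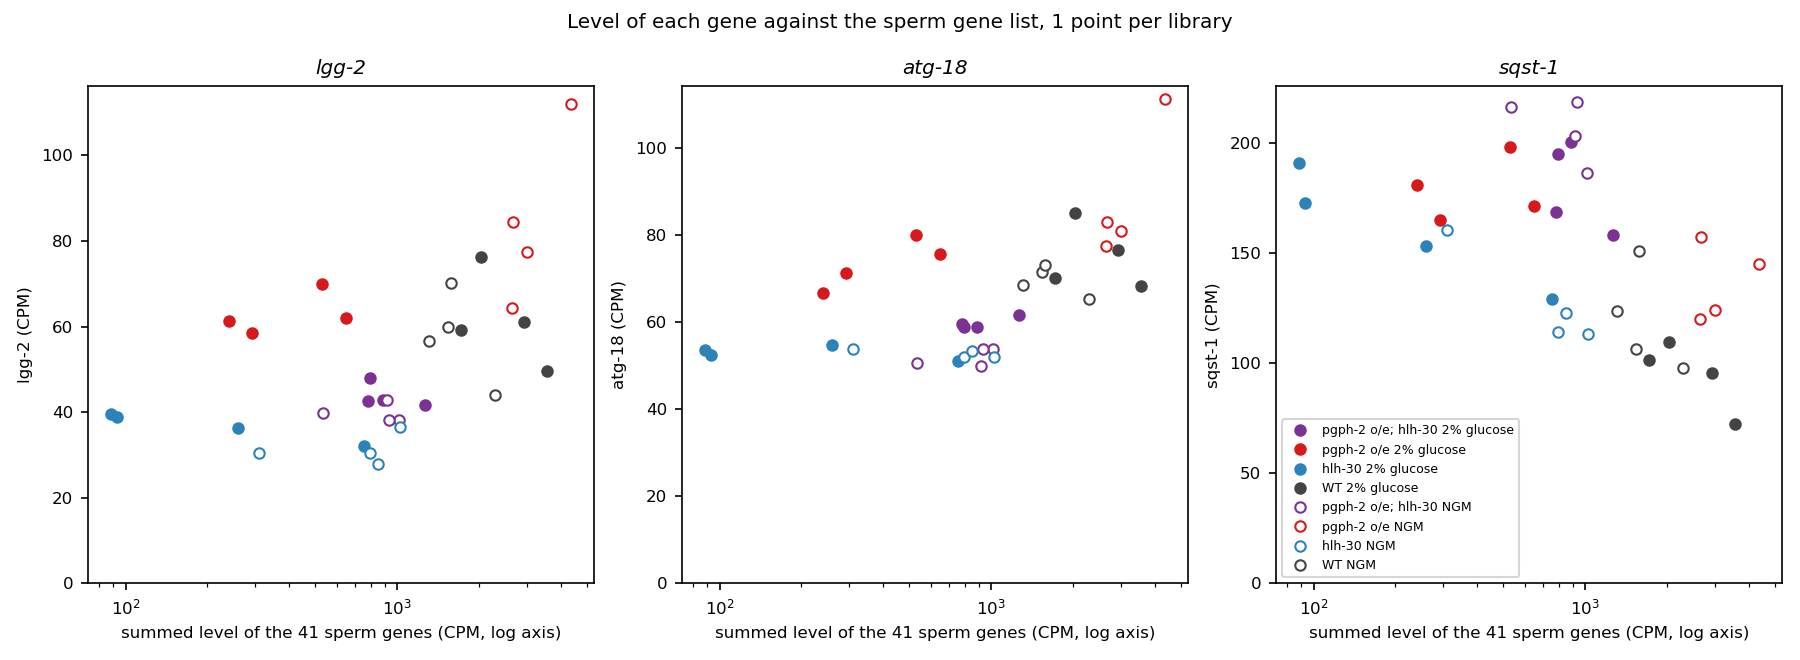
Level of lgg-2, atg-18 and sqst-1 (CPM, from 0) against the summed level of 41 sperm genes (CPM, log axis), with 1 point per library, filled for 2% glucose and open for NGM. On glucose, lgg-2 was at 58.6 to 70.0 CPM in pgph-2 o/e libraries (sums of 240 to 646 CPM) and 32.1 to 39.6 CPM in hlh-30 libraries (88.3 to 756 CPM). The cause of this difference was not tested.

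Across the 12 comparisons, 19 of the 31 calls were kept whichever library was left out and 12 were lost for at least 1 library. The share of all called genes that kept their call in this way was not worked out, so the members are not set against it. The calls kept include lgg-2 and atg-18 in the 4 comparisons of the tm1978 allele, and sqst-1 in all its comparisons but that between media. The calls lost include 6 of the 7 between media.

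**Figure D5:**
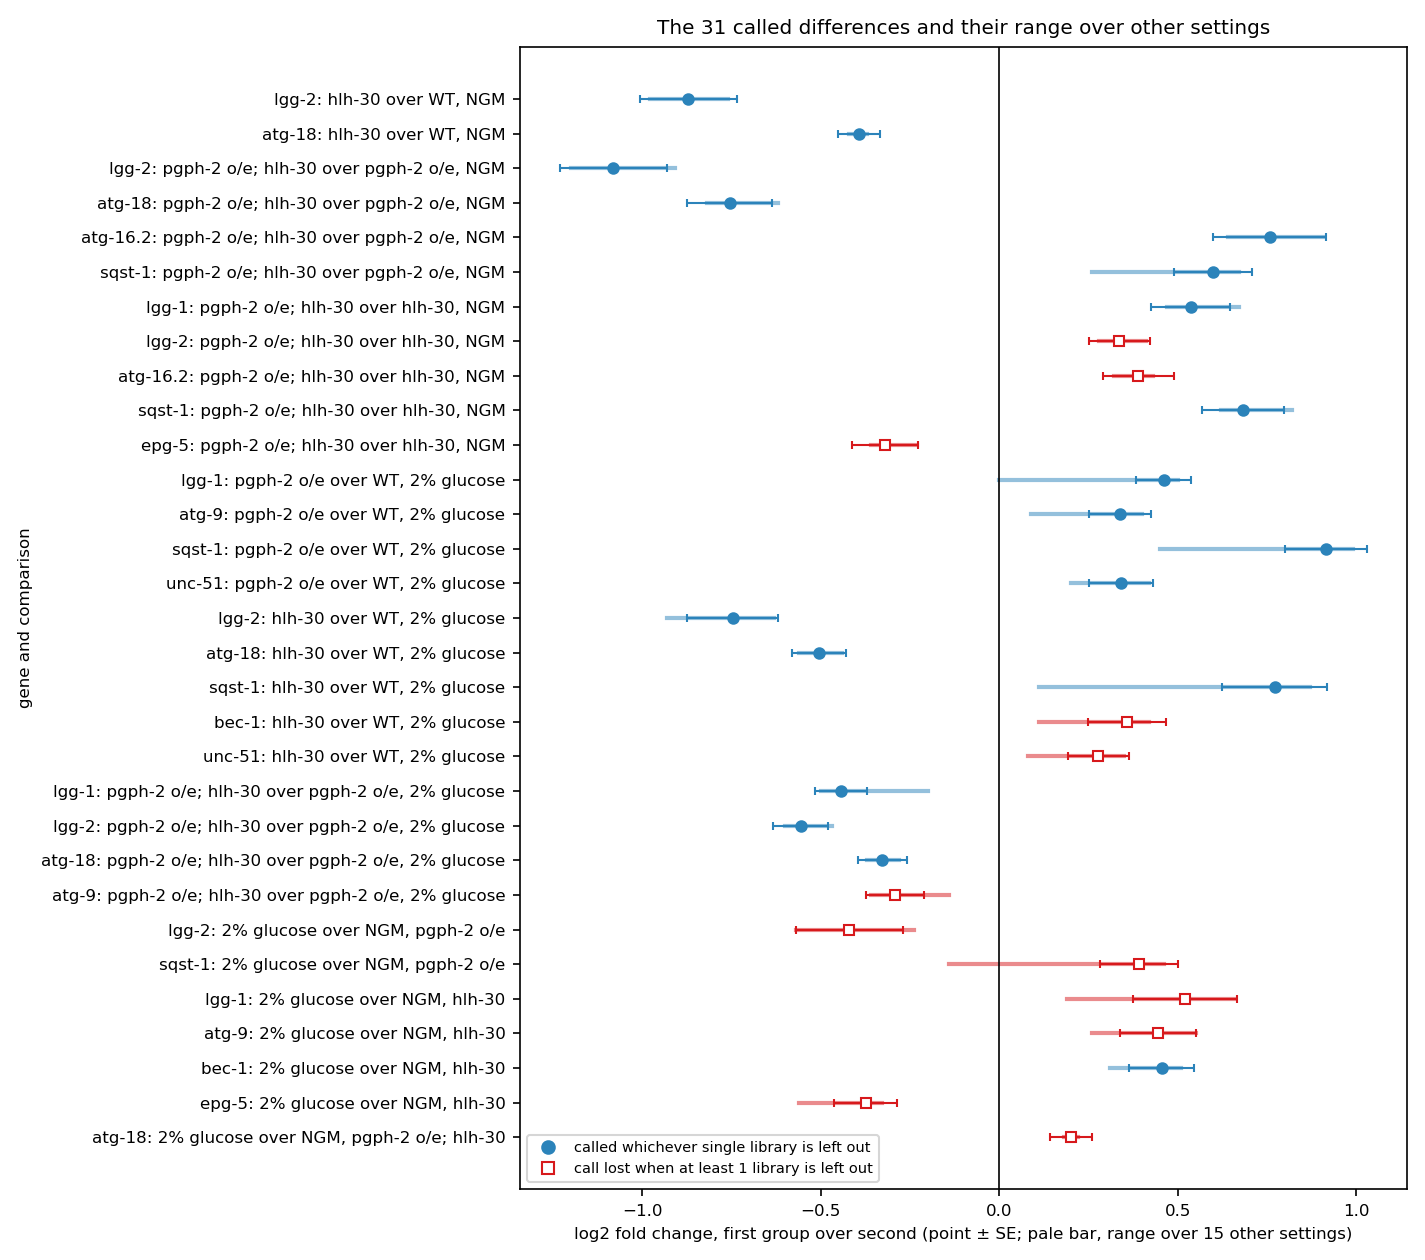
Log2 fold change (horizontal axis, point ± SE) of the 31 called differences, with a pale bar for the range over 15 other settings, which include each library left out. Filled circles (19) kept the call whichever library was left out and open squares (12) lost it; sqst-1 between media in pgph-2 o/e animals is the one bar that crosses 0, with a low end of -0.14.

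The order of the 8 groups was examined for each gene. For lgg-2 the 4 groups with intact hlh-30 stood above the 4 with the tm1978 allele, with means of 84.5 ± 20.1 CPM (pgph-2 o/e on NGM), 63 ± 4.91 CPM (pgph-2 o/e on glucose), 61.6 ± 11.1 CPM (WT on glucose) and 57.7 ± 10.7 CPM (WT on NGM), and then 43.8 ± 2.80 CPM, 39.8 ± 2.26 CPM (double mutant on glucose and NGM), 36.7 ± 3.38 CPM and 31.4 ± 3.70 CPM (hlh-30 on glucose and NGM; SD, n = 4). No neighbours in this order had libraries that were fully apart. For atg-18 the same 4 groups came first, and the double mutant on glucose (59.8 ± 1.33 CPM) stood apart from both neighbours, WT on NGM (69.7 ± 3.46 CPM) above it and hlh-30 on glucose (53 ± 1.56 CPM) below it. For the other 8 genes all neighbours overlapped. The fold between the highest and the lowest group mean was 2.69 for lgg-2, 2.18 for sqst-1 and 1.96 for lgg-1, and 1.27 to 1.69 for the other 7 genes. On levels per length, the mean over 32 libraries was 251 FPKM for lgg-1, 61.7 for sqst-1, 49.7 for lgg-2, 37.3 for atg-18, 25.3 for unc-51, 23.9 for bec-1, 22.4 for atg-4.1, 14.9 for atg-9, 8.65 for atg-16.2 and 6.56 FPKM for epg-5.

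Genes whose pattern was most like that of the 3 members called most often were found by Pearson's r of log2 CPM over the 8 group means, among 10522 genes that averaged 5 CPM or more. For lgg-2 these were atg-3 (r = 0.984, and 0.838 over the 32 libraries), which encodes the enzyme that joins LGG proteins to lipid, T12D8.5 (0.983 and 0.912) and sup-35 (0.980 and 0.724). For atg-18 they were taf-10 (0.982 and 0.867), which encodes a TFIID subunit, F47D12.9 (0.980 and 0.954) and cpr-4 (0.979 and 0.894), a gene for a cathepsin B-like protease. For sqst-1 they were D2007.1 (0.984 and 0.852), faah-2 (0.982 and 0.897), a fatty acid amide hydrolase gene, and Y47H10A.5 (0.972 and 0.939). These values describe 8 points, which share libraries, and the germ cell lists vary over the same groups.

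A list of 25 other autophagy genes was compared in the same fits, of which 24 were tested in each comparison (sepa-1 had too few counts). Calls went in both directions in 6 of the 12 comparisons. In hlh-30 over WT on NGM, where 6.08% of all genes were called higher and 9.08% lower, 1 gene was called higher and 2 lower. These were vps-34 (log2 fold change 0.30), the lipid kinase itself, dct-1 (-0.96), a mitophagy receptor, and atg-3 (-0.31). In the double mutant over pgph-2 o/e on NGM, 6 were called higher and 6 lower, the largest being dct-1 (-1.46), epg-4 (-0.74) and atg-4.2 (0.73), the other ATG4 protease. Of all genes, 19.8% were called higher and 22.6% lower there, so that 6 of 24 in each direction is close to the background. For the transgene over WT on NGM, 0 of the 24 were called by edgeR and 2 by DESeq2, with 5 at an unadjusted p under 0.05. There, edgeR called 4.37% of all genes higher and 2.53% lower. In the double mutant over hlh-30 on NGM atg-2 (0.45), a lipid transfer protein gene, and epg-3 (-0.23) were called. The shares over all genes were 5.8% higher and 5.81% lower.

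On 2% glucose, 5 of the 24 genes were called higher and 1 lower in pgph-2 o/e over WT, against 19.5% of all genes higher and 22% lower. The largest were allo-1 (0.87), a receptor for paternal mitochondria, and epg-2 (0.65), an adaptor for protein aggregates, both higher, and epg-4 (-0.29), lower. In hlh-30 over WT on glucose, 4 were higher and 4 lower, with allo-1 (0.72), dct-1 (-0.71) and epg-2 (0.68) as the largest. Of all genes, 21.4% were called higher and 23.7% lower in that comparison. In the double mutant over pgph-2 o/e on glucose, atg-101 (-0.42), of the initiation complex, and rab-7 (-0.34), a GTPase of late endosomes, were called lower. The shares over all genes were 6.19% higher and 7.05% lower. For the double mutant over hlh-30 on glucose, 0 were called by edgeR or DESeq2 and 2 had an unadjusted p under 0.05. There, edgeR called 1.75% of all genes higher and 2.51% lower. Between media, edgeR called 0 in WT animals (DESeq2 0, unadjusted 1) and 0 in hlh-30 animals (DESeq2 2, unadjusted 3), 3 higher and 2 lower in pgph-2 o/e animals (epg-2, 0.87; dct-1, -0.80; atg-4.2, 0.68) and 2 higher in the double mutant (atg-2, 0.31; rab-7, 0.22). Of all genes, 1.19% were called higher and 2.42% lower in WT, and 7.55% and 5.41% in hlh-30 animals. These shares were 17.3% and 21.5% in pgph-2 o/e animals, and 6.05% and 5.13% in the double mutant. The median of the 24 genes lay between -0.09 and 0.13 in the 12 comparisons, and between 0.00 and 0.02 over all genes tested. Of the called interactions, the largest were epg-4 (-0.55) for transgene and hlh-30 on NGM, allo-1 (-0.80), epg-2 (-0.65) and epg-4 (0.46) on glucose, and epg-2 (0.98), dct-1 (-0.79) and atg-4.2 (0.79) for transgene and glucose.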

How the data were processed

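RNA was sequenced from 32 whole-animal samples, 4 per group. The authors aligned reads with Hisat2 and deposited raw counts per gene (featureCounts 1.5.0-p3 and WBcel235, per the submitters' processing notes). The handling of strand and of reads with several matches is not given in the sources used here. Of 46589 gene identifiers, 45305 matched a RefSeq locus tag. Counts were tested in R 4.3.3 with edgeR 4.0.16 (TMM, filterByExpr, quasi-likelihood F test, Benjamini-Hochberg over all genes tested) on the groups compared, with interactions fitted on 4 groups. FPKM used the gene lengths of the deposited table. The members and gene lists were chosen with earlier results of these data known. All 10 members were named, with, per comparison, at most the 3 other autophagy genes with the largest called change, and for the 3 members called most often the 3 genes with the most similar group means. The alternatives were DESeq2 1.42.0, its size factors, no filter, a minimum of 10 counts in every library, a replicate block, each library left out, and all 32 libraries in one fit without and with the sperm gene score as a covariate. The fitting steps were tested on simulated data. The study describes 4 biological replicates per condition. Neither its methods nor the labels say whether these came from separate cultures, or whether same-numbered libraries share a culture. The p-values set each group difference against the spread between these samples, and whether that includes spread between cultures is not known. Promoter sequences were not analysed here.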

Additional observations from a re-analysis of the deposited data

Results flagged for a closer look

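In 3 of 80 combinations of member gene and group, 1 library stood far from the other 3, where chance gives about 1 in 20. These were replicate 2 of WT on 2% glucose for atg-4.1 (29.7 CPM, the lowest of its group), replicate 1 of pgph-2 o/e on NGM for atg-18 (111 CPM, the highest) and replicate 1 of hlh-30 on NGM for bec-1 (25 CPM, the lowest).

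By the interaction in edgeR, the transgene effect on NGM was called as different between the tm1978 and intact hlh-30 backgrounds for atg-16.2 (0.83, log2 scale). On NGM, 2.27% of all genes had a higher and 1.67% a lower interaction, and the atg-16.2 call was lost for 10 of 16 libraries left out. On 2% glucose, lgg-1 (-0.39), atg-9 (-0.46) and sqst-1 (-0.75) were called, where 21.2% of all genes were higher and 17.3% lower. Between 2% glucose and NGM, the effect of the transgene was called as different for sqst-1 (0.71), where 14.2% of all genes were higher and 19.6% lower. With the sperm gene score added, only the atg-16.2 interaction was kept.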

How the results depend on the processing

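Of the 31 called differences, DESeq2 called 31 (and 1 more), its size factors 29, no filter on low counts 29, a minimum of 10 counts in every library 31, the replicate block 25, all 32 libraries in one fit 27, and that fit with the sperm gene score 10. Where a setting changed a result, the cause was not tested. With all 32 libraries in one fit, the number of members called was 4 for the transgene over WT on NGM, 3 for the double mutant over hlh-30 on NGM, 5 and 0 between media in pgph-2 o/e and double mutant animals, and 5 and 1 for the interactions of glucose with the transgene and with the tm1978 allele. With the sperm gene score added, it was 3 for pgph-2 o/e over WT, 4 for hlh-30 over WT and 3 for the double mutant over hlh-30 on NGM, 0, 0, 1 and 2 for pgph-2 o/e over WT, hlh-30 over WT, and the double mutant over pgph-2 o/e and over hlh-30 on glucose, 0, 1 and 0 between media in pgph-2 o/e, hlh-30 and double mutant animals, and 0 for the interactions of the transgene with hlh-30 on glucose and with glucose. The same fit turned atg-9 in hlh-30 over WT on glucose to -0.14, lgg-1, sqst-1 and unc-51 between media in pgph-2 o/e animals to -0.25, -0.14 and -0.11, and the glucose interactions of lgg-1 and sqst-1 to 0.45 and 0.12.

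With no filter, 0 members were called between media in the double mutant, and with the minimum of 10 counts 2 had an interaction of transgene and glucose. With the replicate block, 2 members were called in the double mutant over hlh-30 on NGM and 1 between media in pgph-2 o/e animals. Nothing in the labels says that same-numbered libraries share a culture or day. Their deviations from the group means correlated at -0.28 to 0.39, and no comparison had every pair over 0.1, so that the block was kept as an alternative. The double mutant over hlh-30 on glucose came closest, with pairs at 0.07 to 0.30 and 3 of 4 libraries correlating best with their own number. With each library left out in turn, the number called ran from 2 to 7 in the double mutant over hlh-30 on NGM, 3 to 6 in hlh-30 over WT on glucose, 0 to 4, 1 to 6 and 0 to 0 between media in pgph-2 o/e, hlh-30 and double mutant animals, 0 to 2 for transgene with hlh-30 on NGM, 1 to 4 for transgene with glucose and 0 to 1 for hlh-30 with glucose. These ranges are of members alone, and the calls over all genes in the same fits are not given here. With each library left out, lgg-1 in the double mutant over hlh-30 on glucose lay between -0.07 and 0.11, and unc-51 between media in pgph-2 o/e animals between -0.01 and 0.21. Of 93 member values called under no setting, 42 changed sign under at least 1.

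Over all genes, edgeR called 667 higher and 387 lower for the transgene over WT on NGM, against 1066 and 759 by DESeq2 and 1135 and 1325 with all 32 libraries. Between media in WT it called 181 and 370, against 708 and 765 by DESeq2, 27 and 85 with the replicate block and 422 and 731 with all 32 libraries. In the double mutant over hlh-30 the block gave 457 and 402 on NGM, against 871 and 872 without it, and 996 and 688 on glucose, against 267 and 382. With the sperm gene score, 319 and 156 were called for the transgene over WT on glucose (2967 and 3337 without), 94 and 75 in hlh-30 over WT on glucose (3275 and 3626), 253 and 149 between media in pgph-2 o/e animals (2598 and 3233) and 0 and 1 for the interaction of transgene and hlh-30 on glucose (3370 and 2749). Under no setting did the median log2 fold change over all genes lie further than 0.088 from 0. With 4 libraries a group, the SE of a member's log2 fold change limits small differences, and atg-16.2 and epg-5 had the fewest counts per length.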
